A study of Mus musculus with 3 samples.

Results

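The genes described here encode the epithelial sodium channel (ENaC) and the proteins that set its amount at the cell surface: the channel subunits Scnn1a, Scnn1b and Scnn1g, the kinases Sgk1, Sgk2 and Sgk3, the ubiquitin ligases Nedd4 and Nedd4l, the deubiquitinase Usp2 and the kinase Wnk1. They were taken by symbol, 10 of the 51803 gene symbols quantified, and comprised 86 of 128603 transcripts. With expression taken as more than 0.3 FPKM, the number of sequenced fragments per unit of transcript length and of library size, in any library, 9 of the 10 genes and 53 of the 86 transcripts were expressed, among 15438 genes and 46567 transcripts in all. RNA-seq was performed on mpkCCD cells, a mouse line of kidney collecting duct cells that was re-cloned for high Aqp2 expression, without vasopressin stimulation. The shCtrl cells stably carried a non-targeting hairpin, and the shGR1 and shGR2 cells carried 1 of 2 different hairpins against the glucocorticoid receptor. All 3 lines were lentivirus-infected cells selected with puromycin, were grown on permeable supports, and were kept in dexamethasone, a glucocorticoid, when serum and the other supplements were withdrawn. The receptor was thus compared at a high and a low level under a continued agonist. One library was sequenced from each line, so a difference of 1 line from shCtrl had no replicate check. Mean log2 ratios are over the 2 knockdown lines, and the SD beside them is the spread of these lines. Both ratios share the lone shCtrl library, so an error in it moves both lines together. The same direction in both lines is therefore no independent check, and the SD leaves out the error of the control. Values in threes are in the order shCtrl, shGR1, shGR2, and values in pairs after them or after a shCtrl value are in the order shGR1, shGR2.

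ENaC is built from α (Scnn1a), β (Scnn1b) and γ (Scnn1g) subunits and lets sodium enter principal cells from the urine. The ligase NEDD4-2, the product of Nedd4l, binds the tails of the subunits and marks the channel for removal from the membrane. The kinase SGK1 phosphorylates NEDD4-2, 14-3-3 proteins bind the phosphorylated ligase and hold it off the channel, and deubiquitinases such as USP2 remove the ubiquitin that was added. Corticosteroids are known to raise Sgk1 and Scnn1a transcription in the collecting duct, and WNK1 acts on SGK1 and on sodium-chloride cotransport.

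Nr3c1, the gene of the targeted receptor, was at 30.2 FPKM in shCtrl, 4.41 FPKM in shGR1 and 9.13 FPKM in shGR2, which is 14.6% and 30.3% of the control level. The paper reports a weaker reduction of the receptor mRNA, nearly equal for both hairpins. It does not state there which assay or RNA sample was used, so its values may not be of the same measure or RNA. The FPKM of all genes summed to between 427704 and 462522 per library, and the median log2 ratio of expressed genes was -0.03 and -0.07 in the knockdown lines. Of 6 principal cell markers 5 were expressed. The summed level of the 6 was 135, 67.0 and 73.5 FPKM, and 3 of them, the water channel gene Aqp2 (9.55, 0.751 and 2.14 FPKM), Fxyd4 (30.7, 1.07 and 3.76 FPKM) and the vasopressin receptor gene Avpr2 (28.5, 12.8 and 12.1 FPKM), were at least 2-fold lower in both lines. Over all expressed genes 3.66% were at least 2-fold lower in both. Gata3, the largest part of the sum in each library, was lower in both lines by less (59.6, 43.2 and 46.6 FPKM). With it 4 of the 5 expressed markers were lower in both lines, against 43.8% of all expressed genes. Aqp3, another water channel gene, was higher in both (6.49, 9.11 and 8.97 FPKM). Elf5, a transcription factor of principal cells, was not expressed, at 0.0928 FPKM in shCtrl and listed at 0 in both knockdown lines. Among markers of other cells, 1 of 4 intercalated cell, 1 of 4 proximal tubule, 1 of 4 loop and distal tubule, 2 of 3 fibroblast, 2 of 3 leukocyte and 0 of 3 endothelial genes were expressed. The fibroblast genes summed to 4.68, 2.67 and 6.55 FPKM, the leukocyte genes to 20.7, 13.8 and 13.98 FPKM, and the intercalated cell genes to 39.4, 20.2 and 18.1 FPKM, nearly all from the proton pump gene Atp6v1b1. In the leukocyte sum Csf1r was at 18.2, 11.0 and 11.1 FPKM, and Cd68 was higher in both lines, at 2.23, 2.67 and 2.75 FPKM. Foxi1, the transcription factor that defines intercalated cells, was listed at 0 in each library. The part of any of these shifts in the values below was not tested.

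The sequence before a start site is where a receptor of this class may bind, and the promoter sequences of RefSeq (GRCm38.p6) held 12 start sites of 6 of the 10 genes, namely Sgk1, Scnn1b, Scnn1g, Nedd4, Usp2 and Wnk1. The 250 bases upstream of each were searched on both strands for the glucocorticoid response element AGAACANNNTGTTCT, which reads the same on both strands, and for its half-site AGAACA. The full element was found in 1 of the 12 windows and in 3 of 32851 windows of all genes (0.00913%), the other 2 being those of Acnat2 and Gm35041, which are named after the search. A half-site was found in 4 of the 12 windows, against 16.1% of all windows. These were the windows before Sgk1-202, Sgk1-203 and Sgk1-204 and before a Nedd4 start with no listed transcript near it. Sgk1 alone had several of the 12 windows, and Sgk1-203 and Sgk1-204 were not expressed. Nothing is therefore read from the difference between these shares. Shown are the start of Sgk1-201, the main Sgk1 transcript in these cells, the start of Sgk1-202, whose window holds the element, and the start of Usp2-202. They belong to the genes with a window that were at least 2-fold lower in both knockdown lines. Each sequence runs 5′ to 3′ on the plus strand and ends at the base before the RefSeq start site. Capitals mark half-sites and the full element, and no base is in capitals where neither was found.
Sgk1-202, chr10:21993640-21993889, plus strand: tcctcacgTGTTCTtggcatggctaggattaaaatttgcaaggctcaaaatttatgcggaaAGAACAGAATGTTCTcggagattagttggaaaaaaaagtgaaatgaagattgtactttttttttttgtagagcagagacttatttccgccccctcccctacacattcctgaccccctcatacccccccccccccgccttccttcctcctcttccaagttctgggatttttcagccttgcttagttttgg
Sgk1-201, chr10:21994416-21994665, plus strand: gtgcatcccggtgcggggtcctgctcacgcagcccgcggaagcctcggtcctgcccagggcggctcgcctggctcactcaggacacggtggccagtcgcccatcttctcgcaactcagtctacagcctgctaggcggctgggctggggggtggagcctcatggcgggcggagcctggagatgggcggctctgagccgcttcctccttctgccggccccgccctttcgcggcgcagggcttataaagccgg
Usp2-202, chr9:44084670-44084919, plus strand: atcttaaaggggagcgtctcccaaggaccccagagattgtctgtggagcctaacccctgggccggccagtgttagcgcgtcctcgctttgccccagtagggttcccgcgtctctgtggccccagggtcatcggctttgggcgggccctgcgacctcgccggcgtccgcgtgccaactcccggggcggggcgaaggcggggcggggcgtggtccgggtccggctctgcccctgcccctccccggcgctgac
The element of Sgk1, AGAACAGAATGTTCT, lay at chr10:21993701-21993715. Its first base was at position -189 relative to the start of Sgk1-202 and at -965 relative to the start of Sgk1-201, so it was outside the 250 bases before the main transcript. Of the 3 half-sites in the Sgk1-202 window 2 were the arms of this element. The windows of Sgk1-201 and Usp2-202 were rich in G and C (70.4% and 71.6%), and that of Sgk1-202 was not (44.8%). A match is a description of the letters and not of binding, which was not measured.

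In shCtrl the 10 genes ran from 444 FPKM for Nedd4 to 0.101 FPKM for Scnn1b. Nedd4 was followed by Scnn1a (168 FPKM), Wnk1 (140 FPKM), Sgk1 (99.8 FPKM), Sgk3 (44.1 FPKM), Nedd4l (16.9 FPKM), Usp2 (7.92 FPKM), Scnn1g (7.81 FPKM) and Sgk2 (3.90 FPKM). Usp2 and Scnn1g were adjacent and nearly equal, and no level had a replicate within shCtrl to set the other steps against. In the knockdown lines Nedd4 stayed first, Sgk1 went from rank 4 of the 10 to ranks 8 and 7, and Scnn1a went from rank 2 to rank 4 in both.

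**Figure D1:**
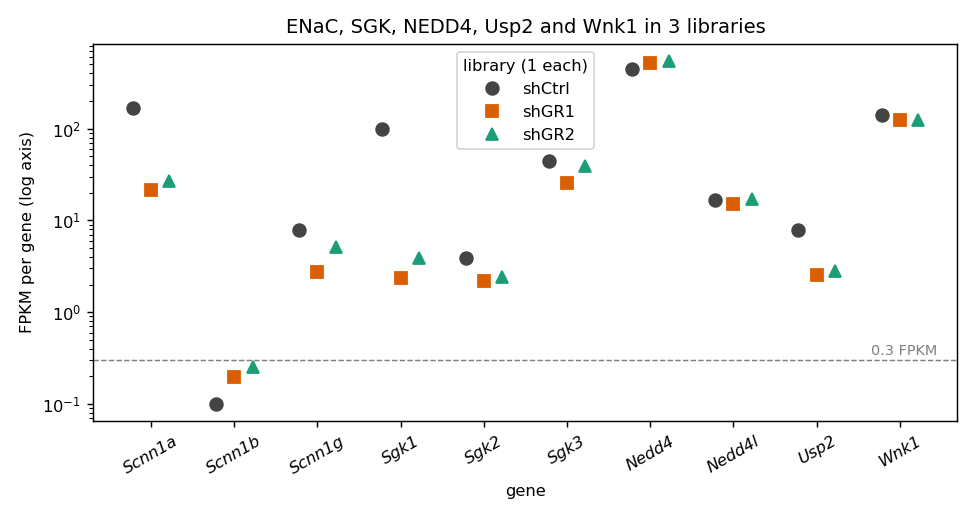
FPKM summed per gene (log axis) of the 10 genes in the 3 libraries, 1 point per library (circle, shCtrl; square, shGR1; triangle, shGR2), with a dashed line at 0.3 FPKM. The shCtrl point stands far above both others for Sgk1 (99.8 against 2.36 and 3.92 FPKM) and Scnn1a (168 against 21.7 and 27.2 FPKM), and all 3 points of Scnn1b lie under the line.

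Of the 9 expressed genes, 7 were lower than shCtrl in both knockdown lines (Scnn1a, Scnn1g, Sgk1, Sgk2, Sgk3, Usp2 and Wnk1), 1 was higher in both (Nedd4) and 1 was mixed (Nedd4l). Over all expressed genes 43.8% were lower in both lines and 31.8% were higher. Of the 9, 3 genes, Sgk1, Scnn1a and Usp2, were at least 2-fold lower in both lines, against 3.66% of all expressed genes, and 0 were at least 2-fold higher, against 2.54%. The median of their mean log2 ratios was -0.77, beside -0.05 for all expressed genes. These directions were the same for all 9 genes after median-centring and after quantile normalization, under which the genes that were lower made up 50.4% and 47.1% of all genes with 1 direction in both lines, in place of 57.9%. The members were chosen with earlier results of these data known, so nothing about them as a set is read from these shares or the median. In bulk RNA, fewer cells that express a gene and less RNA per cell cannot be told apart.

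Limma, fitted on log2(FPKM + 0.1) over all expressed genes with both knockdown lines against the lone control, had 1 residual degree of freedom. It called 0 genes at a Benjamini-Hochberg adjusted p under 0.05, members included, and 1458 lower and 699 higher genes (14% in all) had an unadjusted p under 0.05. Among the 9 genes 4 had an unadjusted limma p under 0.05, namely Scnn1a, Sgk1, Usp2 and Sgk2. With robust moderation of the variances limma called 82 lower and 28 higher genes, among them Scnn1a (adjusted p = 0.0188) and Sgk1 (adjusted p = 0.0213).

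**Figure D2:**
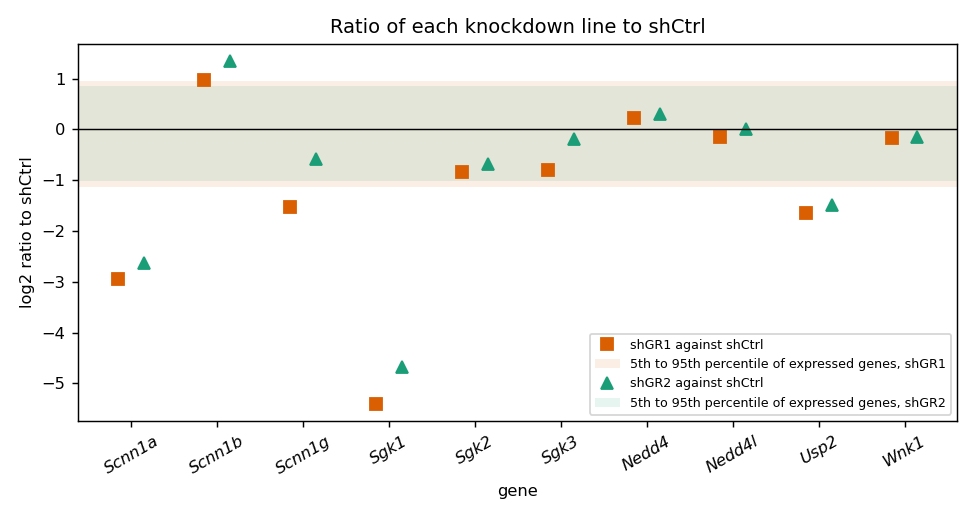
Log2 ratio of each gene to shCtrl in shGR1 (squares) and shGR2 (triangles), 1 library each, with bands from the 5th to the 95th percentile of the expressed genes (-1.13 to 0.96 in shGR1, -1.02 to 0.85 in shGR2). Sgk1, Scnn1a and Usp2 lie below the bands in both lines, Scnn1g does so in shGR1 alone, and Scnn1b, drawn although it was not expressed, lies above them.

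Scnn1a (ENSMUSG00000030340, chromosome 6, 125320659 to 125344943, plus strand), the α subunit that the channel needs to reach the membrane, was at 168 FPKM in shCtrl, 21.7 FPKM in shGR1 and 27.2 FPKM in shGR2. Both knockdown lines were low and close to each other, at 12.9% and 16.2% of the control, a mean log2 ratio of -2.79 ± 0.23 (SD, n = 2 lines, also below). The limma estimate was -2.78 with a standard error of 0.18 (unadjusted p = 0.000403, adjusted p = 0.217), and 27 of 12322 genes averaging 1 FPKM or more had a lower mean ratio. Its signal came from 3 protein-coding transcripts that start close together. Scnn1a-201 was at 102, 12.2 and 15.9 FPKM. Scnn1a-205 was at 35.9, 4.42 and 5.47 FPKM, and Scnn1a-206 at 29.4, 2.50 and 4.17 FPKM. Each of the 3 was thus low in both knockdown lines to a like degree, with mean log2 ratios of -2.87 ± 0.27, -2.87 ± 0.22 and -3.19 ± 0.52. The other 4 Scnn1a transcripts reached at most 1.10 FPKM in any library. Of these, Scnn1a-202, annotated as a target of nonsense-mediated decay, was listed at 0 in shCtrl and was at 0.948 and 0.547 FPKM in the knockdown lines, so that 4.36% and 2.01% of the remaining Scnn1a signal was assigned to it.

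Scnn1g (ENSMUSG00000000216, chromosome 7, 121734479 to 121768475, plus strand), the γ subunit, is cleaved by proteases to open the channel and had a single transcript. It was at 7.81 FPKM in shCtrl, 2.72 FPKM in shGR1 and 5.19 FPKM in shGR2. The lines were both below the control but far apart, at 34.8% and 66.5% of it, with a mean log2 ratio of -1.06 ± 0.66 and an unadjusted limma p of 0.112. Scnn1b (ENSMUSG00000030873, chromosome 7, 121865038 to 121918514, plus strand), the β subunit, stayed at 0.101, 0.198 and 0.256 FPKM, under the 0.3 FPKM limit in all 3 libraries, and entered no count of expressed genes and no test. Multiplied by transcript length, those values were 10.4, 21.3 and 31.8 times percentile 1 of the same product in each library. That percentile, a rough measure of 1 fragment, was taken over single-transcript genes with signal whose transcript was longer than 1500 bases. The mRNA of the 3 subunits was unequal in every line. Scnn1a made up 95.5%, 88.2% and 83.3% of their summed FPKM, and the sum was at 14.01% and 18.6% of the control in shGR1 and shGR2. The ratio of Scnn1a to Scnn1g was 21.5 in shCtrl and 7.99 and 5.25 in the knockdown lines.

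Sgk1 (ENSMUSG00000019970, chromosome 10, 21882184 to 21999903, plus strand), the corticosteroid-induced kinase of the pathway, was at 99.8 FPKM in shCtrl, 2.36 FPKM in shGR1 and 3.92 FPKM in shGR2. The knockdown lines held 2.36% and 3.93% of the control level, with a mean log2 ratio of -5.04 ± 0.52, and only 2 of 12322 genes averaging 1 FPKM or more had a lower mean ratio. The limma estimate was -4.99 with a standard error of 0.37 (unadjusted p = 0.000619, adjusted p = 0.217). Of its 6 expressed transcripts, 5 were over 0.3 FPKM in shCtrl only, so that only Sgk1-201 was expressed in both groups. The main protein-coding transcript, Sgk1-201, was at 75.6 FPKM in shCtrl and 1.97 and 3.64 FPKM in the knockdown lines. Sgk1-202, the transcript that starts closest to the response element, was at 2.04 FPKM in shCtrl and listed at 0 in both knockdown lines. Sgk1-209, which starts near Sgk1-201 and retains introns, was at 19.9 FPKM in shCtrl, 0.106 FPKM in shGR1 and 0 in shGR2. Transcripts that are not annotated as protein-coding made up 21.7% of Sgk1 FPKM in shCtrl and 9.60% and 2.82% in the knockdown lines.

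Sgk3 (ENSMUSG00000025915, chromosome 1, 9798107 to 9900845, plus strand), an endosomal kinase of the same family, was at 44.1 FPKM in shCtrl, 25.4 FPKM in shGR1 and 38.8 FPKM in shGR2, with a mean log2 ratio of -0.49 ± 0.43. Both lines were below the control, shGR1 by more. The sum of its protein-coding transcripts was at 34.8, 16.7 and 25.3 FPKM, and that of its other transcripts at 9.32, 8.70 and 13.5 FPKM. Sgk3-208, a transcript annotated for nonsense-mediated decay, was at 3.39 FPKM in shCtrl and higher in both lines, at 4.21 and 6.07 FPKM. Sgk2 (ENSMUSG00000017868, chromosome 2, 162987330 to 163014127, plus strand), the third kinase, was at 3.90, 2.17 and 2.42 FPKM. Its transcript Sgk2-201 was at 3.38, 1.61 and 2.03 FPKM and Sgk2-202 at 0.513, 0.318 and 0.385 FPKM. For the gene, both lines were below the control and alike, with a mean log2 ratio of -0.77 ± 0.11 and an unadjusted limma p of 0.0459 (adjusted p = 0.350). Summed over the family, SGK mRNA was at 148 FPKM in shCtrl, 29.9 FPKM in shGR1 and 45.1 FPKM in shGR2. Sgk1 made up 67.5% of it in shCtrl and 7.88% and 8.69% in the knockdown lines, in which Sgk3 made up 84.9% and 86.0%.

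**Figure D3:**
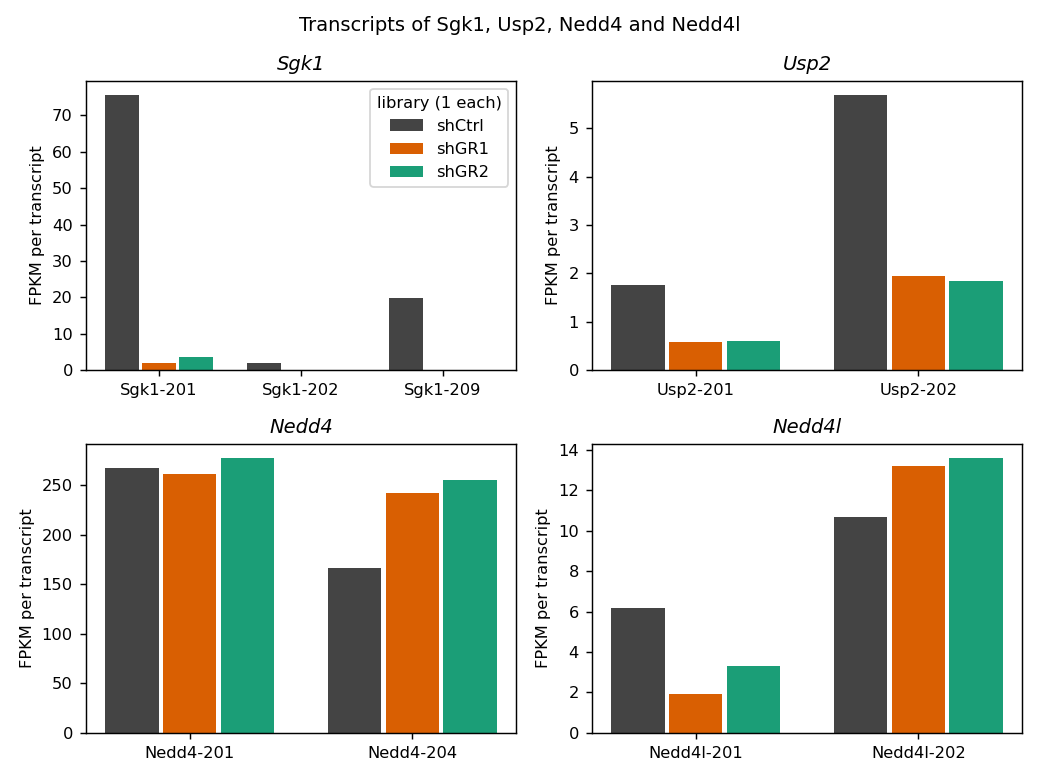
FPKM of single transcripts of Sgk1, Usp2, Nedd4 and Nedd4l, 1 bar per library and each panel on its own axis from 0. Both Usp2 transcripts and all 3 Sgk1 transcripts are lower in both knockdown lines, Nedd4-204 is higher while Nedd4-201 stays between 262 and 278 FPKM, and the Nedd4l transcripts differ in opposite directions.

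Nedd4l (ENSMUSG00000024589, chromosome 18, 64887705 to 65217828, plus strand), which encodes the ligase NEDD4-2 that SGK1 acts on, was at 16.9 FPKM in shCtrl, 15.1 FPKM in shGR1 and 16.9 FPKM in shGR2. Its summed level was alike in the 3 libraries, with a mean log2 ratio of -0.08 ± 0.12 and an unadjusted limma p of 0.620. Of the 34 transcripts that GENCODE M21 gives for the gene 2 were analysed here, and the summed level and the split between starts rest on these. The 2 transcripts, both protein-coding and with start sites far apart (64889029 and 65023549), were not alike. Nedd4l-202, from the upstream start, was at 10.7 FPKM in shCtrl and 13.2 and 13.6 FPKM in the knockdown lines, with a mean log2 ratio of 0.33 ± 0.03. Nedd4l-201, from the downstream start, was at 6.18 FPKM in shCtrl and 1.93 and 3.33 FPKM, a mean log2 ratio of -1.29 ± 0.56. The share of Nedd4l-201 in the gene was therefore 36.7% in shCtrl, 12.8% in shGR1 and 19.6% in shGR2. Neither difference passed limma over all transcripts (unadjusted p = 0.0706 for Nedd4l-202 and 0.0975 for Nedd4l-201, adjusted p = 0.399 and 0.437). The FPKM of overlapping transcripts are estimates that divide shared reads, and the gene has exons that overlap an antisense gene, A330084C13Rik, whose reads cannot be told apart without strand.

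Nedd4 (ENSMUSG00000032216, chromosome 9, 72662346 to 72749852, plus strand), the founding member of the ligase family, was at 444 FPKM in shCtrl, 516 FPKM in shGR1 and 544 FPKM in shGR2. It was the only expressed gene of the 10 that was higher in both lines, with a mean log2 ratio of 0.26 ± 0.05 and an unadjusted limma p of 0.0652 (adjusted p = 0.384). As deposited, the difference was assigned mainly to Nedd4-204, 1 of 4 Nedd4 transcripts that were higher in both lines. It lies within the span of Nedd4-201, and the FPKM of overlapping transcripts are estimates that divide shared reads. Nedd4-204, which spans the 3′ part of the gene and is annotated for nonsense-mediated decay, was at 166 FPKM in shCtrl and 242 and 255 FPKM in the knockdown lines, with a mean log2 ratio of 0.58 ± 0.05. Nedd4-201, the main protein-coding transcript, was at 268, 262 and 278 FPKM, and the sum of all protein-coding Nedd4 transcripts at 271, 265 and 281 FPKM, a mean log2 ratio of 0.01 ± 0.06. Over protein-coding transcripts alone, a sum added after the values had been seen, Nedd4 was thus below shCtrl in shGR1 and above it in shGR2. Nedd4 mRNA was 26.3 times as abundant as Nedd4l mRNA in shCtrl, 34.1 times in shGR1 and 32.1 times in shGR2. These ratios include Nedd4-204 and rest on the 2 Nedd4l transcripts analysed. The protein-coding sum of 271, 265 and 281 FPKM for Nedd4 stood beside 16.9, 15.1 and 16.9 FPKM for Nedd4l.

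Usp2 (ENSMUSG00000032010, chromosome 9, 44067021 to 44095627, plus strand), a deubiquitinase that acts on ENaC and on clock proteins, was at 7.92 FPKM in shCtrl, 2.53 FPKM in shGR1 and 2.82 FPKM in shGR2. Both lines were low and near each other, at 32.0% and 35.6% of the control, with a mean log2 ratio of -1.57 ± 0.11. The limma estimate was -1.53 with a standard error of 0.21 (unadjusted p = 0.00411, adjusted p = 0.265), and 112 of 12322 genes had a lower mean ratio. The gene has 2 main protein-coding transcripts from separate start sites, and both were lower to a like degree. Usp2-202, from the downstream start shown above, was at 5.69 FPKM in shCtrl and 1.95 and 1.85 FPKM in the knockdown lines, with a mean log2 ratio of -1.58 ± 0.05. Usp2-201, from the upstream start, was at 1.77 FPKM in shCtrl and 0.585 and 0.610 FPKM, a mean log2 ratio of -1.56 ± 0.04. Exons of Usp2 overlap those of the antisense genes Gm39325 and Gm49380.

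Wnk1 (ENSMUSG00000045962, chromosome 6, 119923969 to 120038672, minus strand), a kinase mutated in a human form of hypertension with high potassium, was at 140 FPKM in shCtrl, 124 FPKM in shGR1 and 126 FPKM in shGR2. Both lines were slightly below the control, with a mean log2 ratio of -0.17 ± 0.02, an unadjusted limma p of 0.122, and 36.1% of expressed genes at a lower mean ratio. Of its 14 expressed transcripts 10 were lower and 3 were higher in both lines, beside 40.2% and 33.1% of all expressed transcripts. Among the 10, Wnk1-205 and Wnk1-217 were over 0.3 FPKM in shCtrl only, so the limit of expression set their direction. Protein-coding transcripts differed in direction. Wnk1-224 was at 33.6, 27.0 and 27.4 FPKM and Wnk1-202 at 25.6, 20.6 and 18.9 FPKM. Wnk1-204, which shares its start and end with Wnk1-224, was higher in both lines, at 13.3, 17.1 and 15.8 FPKM. The highest Wnk1 transcript was Wnk1-208, a short one at the 3′ end that retains introns, at 55.1, 47.5 and 54.7 FPKM.

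Over all 10 genes, 31 of the 53 expressed transcripts were lower and 12 were higher in both lines, against 40.2% and 33.1% of all expressed transcripts. At least 2-fold in both lines were 13 lower and 4 higher transcripts, against 8.06% and 9.91%. Of the 13, however, 7 were over 0.3 FPKM in shCtrl only, and of the 4, 3 were so in the knockdown lines only, so these counts are partly set by the limit of expression and nothing is read from them. Those expressed in both groups were 3 transcripts of Scnn1a, 2 of Usp2 and Sgk1-201, all lower, and Wnk1-207, at 0.3003, 1.16 and 0.872 FPKM. The limit of expression bears as well on the limma count that follows, from which nothing is read either. Among its transcripts, Sgk1-202, Sgk1-208, Sgk1-209 and Wnk1-217 were over 0.3 FPKM in shCtrl only, and Scnn1a-202 in the knockdown lines only. Limma over all transcripts called 0 of 46567 at an adjusted p under 0.05, and 14 of the 53 had an unadjusted p under 0.05, beside 13.6% of all transcripts.

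The 2 knockdown lines were also set against each other. All 9 expressed genes were lower in shGR1 than in shGR2, as was Scnn1b, against 42.8% of all expressed genes. The count stayed 9 of 9 after median-centring and quantile normalization, beside 48.6% and 49.1% of all genes. It was 7 of 9 over protein-coding transcripts alone, beside 46% of genes, where Wnk1 (67.7 against 63.9 FPKM) and Usp2 (2.53 against 2.47 FPKM) were higher in shGR1. With the highest transcript of each gene it was 8 of 9, beside 47.2%, Usp2 being the exception. The log2 difference of shGR1 from shGR2 was -0.93 for Scnn1g, -0.73 for Sgk1, -0.61 for Sgk3 and -0.33 for Scnn1a, and between -0.17 and -0.02 for the other 5 expressed genes. Nr3c1 was lower in shGR1 as well in these libraries. The paper reports nearly equal receptor mRNA in both lines, without stating with it the assay or the RNA sample. With 1 library per line, hairpin, line and library cannot be told apart.

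The genes around this axis were described by 7 lists, likewise chosen with earlier results of these data known. They held 48 genes, of which 42 were expressed. Of these 20 were lower in both lines, 11 were higher and 11 were mixed, beside 43.8% lower and 31.8% higher of all expressed genes. After median-centring 18 were lower and 14 higher, and after quantile normalization 16 were lower and 16 higher. The 3 genes Tsc22d3, Nr3c1 and Hsd11b1 were at least 2-fold lower in both, beside 3.66% of all expressed genes. Nr3c1 is the target of the hairpins, so its lower level was set by the design. It is included in the counts of lower genes in this paragraph and in the limma count below. Limma gave 9 of the 42 an unadjusted p under 0.05, beside 14% of all expressed genes, and none an adjusted one.

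Among proteases, inhibitors and scaffolds of the channel 6 of 8 genes were lower and 1 was higher in both lines. Beside this stand 43.8% and 31.8% of all expressed genes. The median mean log2 ratio of the list was -0.20. Tsc22d3 (GILZ), a glucocorticoid-induced partner of SGK1 in the regulation of ENaC, was at 257 FPKM in shCtrl and 36.9 and 46.9 FPKM in the knockdown lines. Its mean log2 ratio of -2.63 ± 0.25 was close to that of Scnn1a. Limma gave it an unadjusted p of 0.000548. The other gene of the list with an unadjusted limma p under 0.05, named after its values were seen, was the membrane protease gene Tmprss4, at 2.67, 1.44 and 1.40 FPKM. St14 was lower in both lines as deposited and higher in both after quantile normalization, and Spint1 was mixed after it. Of the receptor genes and the enzymes that control their ligand 3 of 4 were expressed. Hsd11b1, which regenerates active glucocorticoid, was at 1.26 FPKM in shCtrl and 0.290 and 0.455 FPKM in the knockdown lines. Hsd11b2, which inactivates it and protects the mineralocorticoid receptor, was mixed, at 27.8, 19.5 and 55.8 FPKM. The mineralocorticoid receptor gene Nr3c2, through which aldosterone acts on ENaC, was not expressed, at 0.125, 0.238 and 0.265 FPKM.

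**Figure D4:**
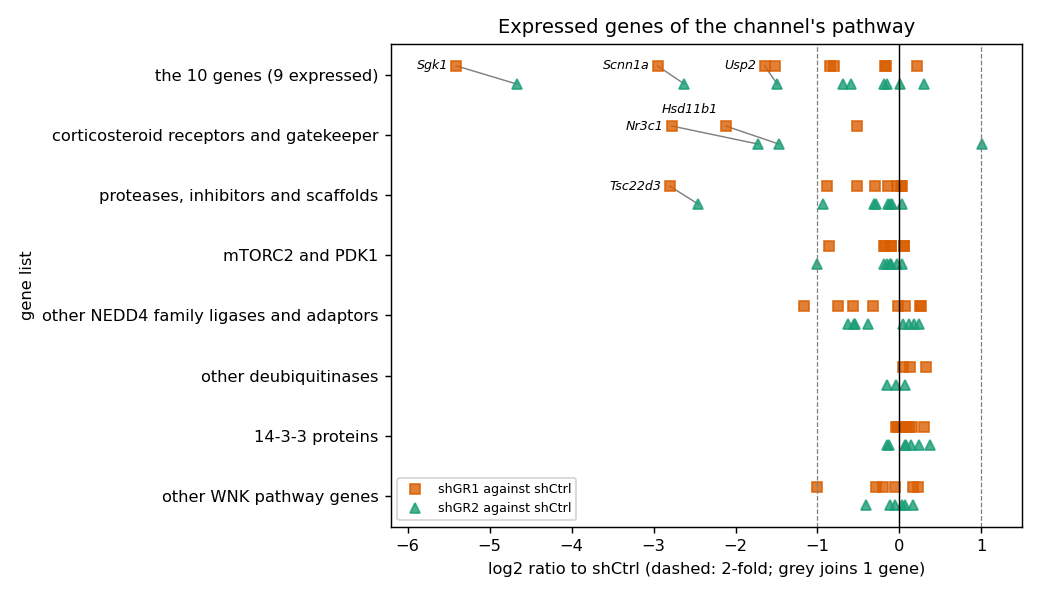
Log2 ratios to shCtrl of the expressed genes of each list in shGR1 (squares) and shGR2 (triangles), with names and joining lines for the genes at least 2-fold lower in both. Outside the 10 genes only Tsc22d3 (mean -2.63), Nr3c1 (mean -2.25) and Hsd11b1 (mean -1.79) pass the dashed line at -1 in both lines.

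In the mTORC2 and PDK1 list, the kinases and partners that activate SGK, 5 of 7 expressed genes were lower and 1 was higher in both lines, beside 43.8% and 31.8% of all expressed genes, with a median of -0.11. Deptor, an inhibitor of mTOR, was at 4.73 FPKM in shCtrl and 2.61 and 2.36 FPKM in the knockdown lines, with a mean log2 ratio of -0.93 ± 0.10. Mlst8 was mixed after either scaling, which left 4 of 7 lower. Of the other NEDD4 family ligases and their adaptors 4 of 8 were lower and 3 higher in both lines, beside the same shares of 43.8% and 31.8%. Smurf2 was mixed as deposited and higher in both lines after either scaling. Hecw2 had the largest ratio without a pseudocount, at 0.424, 0.190 and 0.290 FPKM, but was over 0.3 FPKM in shCtrl only. In this list 3 genes had an unadjusted limma p under 0.05 and are named after their values were seen. The ligase genes Wwp1 (17.3, 10.3 and 11.2 FPKM) and Itch (64.7, 43.5 and 44.5 FPKM) and the adaptor gene Ndfip1 (75.8, 60.5 and 57.9 FPKM) were each lower in both lines.

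Of the 7 expressed 14-3-3 genes 4 were higher and 1 was lower in both lines, beside 31.8% and 43.8% of all expressed genes. The lower one, Ywhaq, was mixed after either scaling, and Ywhab was mixed as deposited and higher after quantile normalization. Ywhae had the largest ratio, at 303, 374 and 359 FPKM, a mean log2 ratio of 0.27 ± 0.04. Of the other WNK pathway genes 2 of 6 expressed were lower and 1 was higher in both lines, beside 43.8% and 31.8% of all expressed genes. Oxsr1 was mixed as deposited and higher in both lines after either scaling. Stk39, the SPAK kinase that WNK1 activates, was at 1.92, 0.956 and 1.44 FPKM. Of the 3 other deubiquitinases linked to the channel, Usp8 was higher in both lines, at 38.3, 41.8 and 40.2 FPKM, and Usp10 was mixed as deposited and higher in both after either scaling.

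The genes most like the 3 members that were at least 2-fold lower in both lines were taken by the distance between their 2 log2 ratios, over 10508 named genes that averaged 1 FPKM or more over the 3 libraries. Nearest to Scnn1a were Cntf, a neurotrophic factor (22.2, 2.77 and 3.84 FPKM, distance 0.10), Lrrc26, a subunit of potassium channels (18.6, 2.79 and 3.15 FPKM, distance 0.22), and Lypd6 (2.66, 0.298 and 0.405 FPKM, distance 0.23). Sgk1 had no close neighbour. Cited4 (11.9, 0.380 and 0.580 FPKM) lay at 0.53, Sult1d1, a sulfotransferase (47.5, 0.647 and 1.16 FPKM), at 1.05 and Fcgbp (24.9, 0.903 and 1.89 FPKM) at 1.13. Nearest to Usp2 were Etfbkmt (17.8, 5.91 and 6.40 FPKM) and the copper transporter gene Slc31a2 (20.3, 6.50 and 7.49 FPKM), both at 0.05, and the epoxide hydrolase gene Ephx1 (69.7, 23.7 and 25.4 FPKM) at 0.10. The ratios share the control library, so a small distance describes these 3 libraries only.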

How the data were processed

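RNA-seq of 3 libraries was used. The authors deposited FPKM per transcript, made per the submitters' processing notes with HISAT2, Cuffdiff, Cufflinks 2.2.1 and bcl2fastq 2.20. The notes name the build GRCm39, but 98.6% of the 127971 transcripts found in GENCODE M21 (GRCm38) lay within the deposited loci, so positions are those of GRCm38. Strandedness was not given in the sources used here. Also deposited by the authors were sheets that compare each knockdown line with shCtrl (ratios, p-values and q-values), which were not used. Read counts were not analysed, so no counting error is given.

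FPKM were summed per symbol. Genes and transcripts over 0.3 FPKM in any library were kept, and ratios to shCtrl were taken without a pseudocount. Limma 3.58.1 in R 4.3.3 was fitted with an abundance trend on log2(FPKM + 0.1), the lone control being assumed to vary as the knockdown lines do, and was tested on simulated data. Its variances come from the spread between 2 different hairpin lines, which may be technical. With 1 residual degree of freedom they are drawn strongly toward a trend over all genes. The p-value of a gene therefore does not measure its own spread between the lines alone. Python 3.11.15 with pandas 2.3.3 and numpy 2.4.6 was used otherwise. The members and gene lists were chosen with earlier results of these data known.

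The rule for names took all members with their expressed transcripts (the main ones are named and the others given as counts), Nr3c1, in each list the genes at least 2-fold from shCtrl in both lines or otherwise the expressed gene with the largest mean ratio, and for each such member the 3 nearest genes. Alternatives were other pseudocounts (0.01 and 1), no filter or a filter at 1 FPKM, median-centring, quantile normalization, robust moderation, the highest transcript of a gene alone, each knockdown line alone and, added later, protein-coding transcripts alone.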

Additional observations from a re-analysis of the deposited data

How the results depend on the processing

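The mean log2 ratios of 8 of the 9 expressed genes kept their sign under every scaling, pseudocount and choice of transcripts tried and in each knockdown line alone, the exception being Nedd4l, which lay near 0. Scnn1b kept its sign too, without quantile normalization, which was not run for it. Leaving out the values of single lines, which lie within the spread by construction, 46 of 59 values moved by less than the spread between the knockdown lines. Some of these could not move. The choice of transcripts changes nothing for Scnn1g and Scnn1b, nor does protein-coding alone for Nedd4l. The measure is also lenient where the lines lie far apart, as for Scnn1g (SD 0.66) and Sgk3 (SD 0.43). With a pseudocount of 1 the log2 ratio was -0.57 for Sgk2, -1.28 for Usp2 and 0.16 for Scnn1b, and with one of 0.1 that of Scnn1b was 0.70. The limma estimate of Nedd4l turned from -0.08 to 0.0064 after quantile normalization (adjusted p = 0.989). Robust moderation of limma gave 82 lower and 28 higher genes in place of 0, and the adjusted p over the limma settings ran from 0.0188 to 0.395 for Scnn1a, from 0.0213 to 0.395 for Sgk1 and from 0.0856 to 0.395 for Usp2. With the highest transcript alone, Nedd4 was at 0.01, Nedd4l at 0.33 and Sgk2 at -0.91, and quantile normalization put Nedd4 at 0.46 and Wnk1 at -0.06. With 1 knockdown line left out, list genes that were higher numbered 16 to 17 in place of 11 and lower ones 25 to 26 in place of 20, since 1 line leaves none mixed. The cause of the other shifts was not tested. No paired analysis was possible, because each line had 1 library and the sample titles give no pairing of libraries. Read depth is known only through FPKM, which limits what can be said of genes near 0.3 FPKM.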
